A study of Homo sapiens with 2 samples.

Results

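The genes described here are 10 transcriptional outputs of the ERK pathway: the phosphatase genes DUSP4, DUSP5 and DUSP6, the Sprouty genes SPRY1, SPRY2 and SPRY4, the Sprouty-related genes SPRED1 and SPRED2, and the ETS transcription factor genes ETV4 and ETV5. They were chosen by name as ERK feedback and ETS output genes, with earlier results of these data known. Counts of these genes and of related lists beside all genes are therefore descriptions, not tests. Each symbol matched 1 row of the expression table, and the 10 genes are among its 16654 genes. RNA was sequenced from the established cell line HUCCT-1, which derives from a human intrahepatic cholangiocarcinoma, after 48 h with 5 μM XY101, an antagonist of the nuclear receptor RORγ, or with vehicle. One library was analysed for each condition, the vehicle one being titled Con2, and both came from the same line in the same medium with serum. A single line is a limited model of the tumor. GSK805, another RORγ antagonist named in the sample labels, was not analysed here.

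ERK is the last kinase of the cascade that runs from receptor tyrosine kinases through RAS, RAF and MEK. Active ERK induces genes whose products shut the cascade down again, so the RNA of these feedback genes is widely read as a record of pathway output. DUSP proteins remove phosphate from MAP kinases, Sprouty proteins dampen signalling between receptor and RAF, and SPRED proteins bring the RAS-inactivating protein neurofibromin to the membrane. ETV4 and ETV5 belong to the PEA3 group of ETS factors and are held down by the repressor CIC until ERK signalling relieves it. FGF receptors, whose control by RORγ is the question of the study, are classical inducers of DUSP6, Sprouty and PEA3 genes.

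The values are FPKM, fragments scaled to transcript length and to the mapped fragments of the library. This allows for transcript length and depth, but a ratio between libraries still depends on the scaling. The FPKM sums were unequal, 832819.8 with XY101 and 858282.3 with vehicle. The sources used here do not state total fragments, and the spacing of low values of genes with a single coding transcript gave about 17750000 fragments for the XY101 library and about 17750000 for the vehicle library. At these depths 81.1% and 82.7% of the 132 and 133 low values examined were whole fragments within 0.2, against at most 51% and 58.2% with shuffled transcript lengths. All 7 biliary epithelial markers passed 1 FPKM, with a sum of 8422.42 FPKM with XY101 and 10037.85 with vehicle. KRT7 was the largest part of that sum (4184.91 and 5080.23 FPKM). Of the 7, 5 lay lower with XY101, where 35.3% of all genes with a mean of at least 1 FPKM did. The other 2, EPCAM (275.12 and 254.18 FPKM) and CDH1 (96.19 and 81.93 FPKM), lay higher. SOX9 was lowest at 1.96-fold lower (7.41 and 14.61 FPKM), where 2.32% of those genes were at least 1.5-fold lower. Of 5 fibroblast markers, COL1A1 (9.82 FPKM with XY101 and 7.01 with vehicle) and LUM (1.37 and 1.05) passed 1 FPKM and DCN was at 0.00 and 0.03. Of 3 immune markers in the table, CD68 (47.17 and 63.58 FPKM) and CD14 (3.96 and 2.21) passed and PTPRC was at 0.00 and 0.02. None of 4 endothelial markers passed, PECAM1 being highest with XY101 (0.50 and 0.20 FPKM), and of 2 hepatocyte markers in the table SERPINA1 passed (214.25 and 179.49 FPKM). The part of these markers in the results was not tested. Because there was 1 library per condition, differences carry neither a p-value nor a replicate error and hold for these libraries alone. In RNA from a whole culture, fewer cells expressing a gene and less RNA per cell cannot be told apart.

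All 10 genes were expressed at a mean of at least 1 FPKM, and with XY101 DUSP5 was 2.46-fold lower, SPRY2 1.47-fold and SPRY4 1.33-fold lower and SPRED1 1.57-fold higher, while DUSP4, DUSP6, SPRY1, SPRED2, ETV4 and ETV5 differed by no more than 1.12-fold. The log2 ratio of XY101 to vehicle, computed with a pseudocount of 0.1 FPKM, ranged over the 10 genes from -1.30 for DUSP5 to 0.65 for SPRED1. Their median was -0.10, beside a median of 0.09 over the 10894 genes with a mean of at least 1 FPKM. The middle of the 10 ratios ran from -0.33 to 0.10 (quartiles), against -0.08 to 0.26 over all those genes. Of the 10, 6 lay below 0, as did 35.3% of all genes, and 7 lay below the median gene.

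The 10 genes were chosen with earlier results of these data known, so the shares here describe them and test nothing. At least 2-fold lower was 1 of the 10 genes, DUSP5, beside 0.698% of all genes. None was at least 2-fold higher, beside 1.17% of all genes. At a threshold of 1.5-fold, 1 gene was lower, again DUSP5, beside 2.32% of all genes, and 1 was higher, SPRED1, beside 4.90%. SPRY2 lay just inside that threshold at 1.47-fold lower. The median gene itself was slightly higher with XY101, and this bears on the threshold. After centring on it, SPRY2 joined DUSP5 among genes at least 1.5-fold lower, SPRED1 no longer reached 1.5-fold higher, and over all genes the 1.5-fold counts became 336 higher and 366 lower, against 534 and 253 as deposited. For 2-fold the counts over all genes were 96 higher and 95 lower after centring, against 127 and 76.

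**Figure D1:**
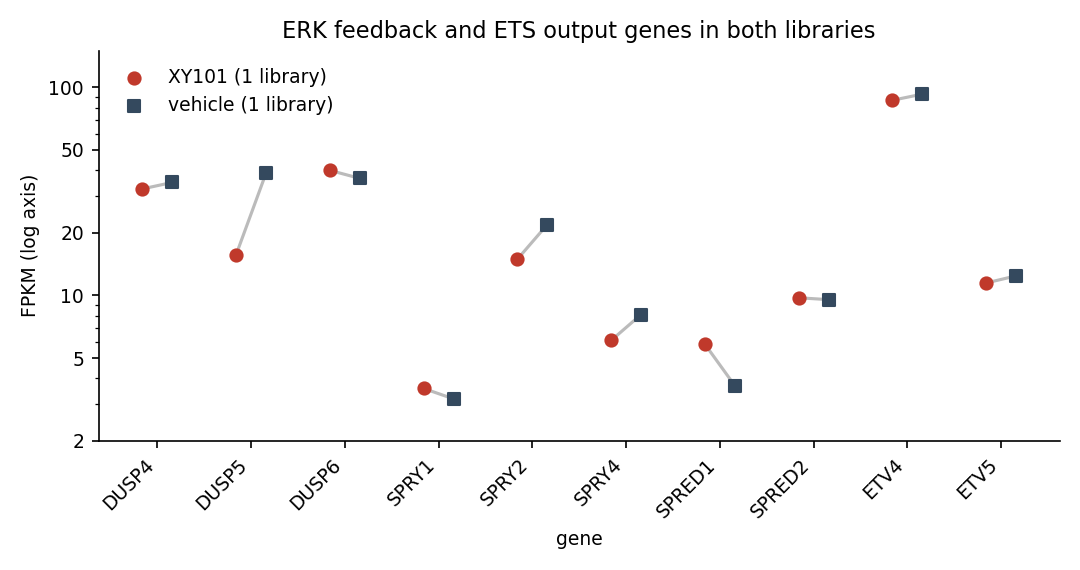
FPKM (log axis) of each of the 10 genes in the XY101 library (circles) and in the vehicle library (squares), 1 library per condition, with a grey line joining the pair. DUSP5 had 15.68 FPKM with XY101 and 38.76 FPKM with vehicle, whereas ETV4, the most abundant of the genes, had 86.68 and 92.81 FPKM.

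Among the phosphatase genes a single member stood out. DUSP5 encodes a nuclear phosphatase that acts on ERK and anchors it in the nucleus. It had 15.68 FPKM in the XY101 library and 38.76 FPKM in the vehicle library, 2.46-fold lower with XY101 (log2 ratio -1.30). Its ratio ranked 33 from the lowest among the 10894 genes. DUSP5 lies on chromosome 10 from 112257665 to 112271291 on the plus strand (GRCh37, GENCODE release 44) and has 1 coding transcript of 2477 nt, so its conversion to fragments does not depend on the isoform. It corresponds to about 606 fragments with XY101 and 1498 with vehicle, which gives the log2 ratio a 95% Clopper-Pearson interval of -1.44 to -1.17 from counting alone.

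DUSP6 encodes a cytoplasmic phosphatase with high selectivity for ERK. Its level was 39.91 FPKM with XY101 and 36.51 FPKM with vehicle, a log2 ratio of 0.13 that is close to the median gene (0.03 above it). DUSP4, which encodes an inducible nuclear phosphatase of MAP kinases, had 32.50 FPKM with XY101 and 34.93 FPKM with vehicle (log2 ratio -0.10). In the vehicle library the 3 phosphatase genes lay between 34.93 and 38.76 FPKM, and in the XY101 library DUSP5 lay well below the other two. This is also seen within each library, where scaling between libraries plays no part: DUSP5 was at 39.3% of DUSP6 with XY101 and at 106% with vehicle, and at 48.2% of DUSP4 with XY101 and 111% with vehicle. Summed over the 3 genes, phosphatase RNA was 88.09 FPKM with XY101 and 110.20 FPKM with vehicle, 1.25-fold lower.

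DUSP4 lies on chromosome 8 (29190581 to 29208201, minus strand) and DUSP6 on chromosome 12 (89741012 to 89746278, minus strand). Of the exon bases of DUSP6, 28.6% also belong to a long noncoding RNA on the opposite strand, and the sources used here do not say whether reads were counted by strand. No exon of DUSP4 or DUSP5 overlaps another gene. No 100-base window of the longest coding transcript of DUSP4, DUSP5 or DUSP6 occurs in the transcripts of any other gene in GENCODE release 44.

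The Sprouty genes gave unequal values. SPRY2, which encodes the Sprouty protein best known as an inhibitor of signalling from FGF receptors to RAS, had 14.92 FPKM with XY101 and 21.91 FPKM with vehicle, 1.47-fold lower (log2 ratio -0.55). SPRY4, whose product also blocks RAS and RAF activation, had 6.07 FPKM with XY101 and 8.09 FPKM with vehicle, 1.33-fold lower (log2 ratio -0.41). Their ranks from the lowest ratio were 287 and 530 of 10894. SPRY1, a further inhibitor of the same step, was the least abundant of the 10 genes in both libraries, at 3.57 FPKM with XY101 and 3.18 FPKM with vehicle (log2 ratio 0.16).

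The counting intervals of SPRY2 (-0.71 to -0.40) and SPRY4 (-0.59 to -0.24) lay below 0, while that of SPRY1 ran from -0.21 to 0.54, so a difference in SPRY1 was not detectable at this depth. SPRY4 RNA was 40.7% of SPRY2 RNA with XY101 and 36.9% with vehicle, a log2 difference of 0.14 between the 2 libraries. SPRY2 was 4.18 times as abundant as SPRY1 with XY101 and 6.89 times with vehicle. Sprouty RNA in sum was 24.56 FPKM with XY101 and 33.18 FPKM with vehicle, 1.35-fold lower. SPRY3, the remaining member of the family, was near the floor of detection at 0.10 FPKM with XY101 and 0.12 FPKM with vehicle.

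SPRY1 lies on chromosome 4 (124317950 to 124324915, plus strand), SPRY2 on chromosome 13 (80910111 to 80915261, minus strand) and SPRY4 on chromosome 5 (141689992 to 141706020, minus strand). None shares exon bases with another gene.

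Of the SPRED pair, only SPRED1 was past 1.5-fold. SPRED1, which recruits neurofibromin to RAS, had 5.83 FPKM with XY101 and 3.68 FPKM with vehicle, 1.57-fold higher (log2 ratio 0.65), with a counting interval from 0.42 to 0.90. It ranked 391 from the highest ratio among the 10894 genes. Centred on the median gene its log2 ratio was 0.56, short of 1.5-fold, and it also fell short with a pseudocount of 1 FPKM. SPRED2, a close relative with the same partner, had 9.74 FPKM with XY101 and 9.54 FPKM with vehicle (log2 ratio 0.03). SPRED1 was thus at 59.9% of SPRED2 with XY101 and at 38.6% with vehicle. The third family member, SPRED3, was barely expressed, at 0.42 FPKM with XY101 and 0.33 FPKM with vehicle. NF1, which encodes neurofibromin itself, had 5.42 FPKM with XY101 and 5.22 FPKM with vehicle.

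Transcript length and GC content moved with the ratios. The longest coding transcript of SPRED1 is 7270 nt with 36.3% GC, the longest and the lowest in GC of the 10. Over all genes with a mean of at least 1 FPKM, the median log2 ratio was 0.16 in the fifth of genes with the longest transcripts and 0.00 in the fifth with the shortest, and 0.19 in the fifth lowest in GC and 0.02 in the fifth highest. Relative to the 500 genes nearest in GC the SPRED1 log2 ratio was 0.45, and relative to the 500 nearest in length 0.50. DUSP5 was at -1.34 and -1.37 on those scales. The part of length and GC content in these ratios was not tested. SPRED1 lies on chromosome 15 (38545037 to 38649450, plus strand) and SPRED2 on chromosome 2 (65537985 to 65659771, minus strand).

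ETV4 and ETV5 differed little. ETV4 was the most abundant of the 10 genes, with 86.68 FPKM in the XY101 library and 92.81 FPKM in the vehicle library (log2 ratio -0.10), and it made up 38.3% of the summed FPKM of the 10 genes with XY101 and 35.4% with vehicle. ETV5 had 11.47 FPKM with XY101 and 12.41 FPKM with vehicle (log2 ratio -0.11). ETV5 was 13.2% of ETV4 with XY101 and 13.4% with vehicle, the steadiest of the within-library ratios computed. ETV1, the other PEA3 factor, had 3.41 FPKM with XY101 and 2.28 FPKM with vehicle, 1.47-fold higher.

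ETV4 lies on chromosome 17 (41605212 to 41656988, minus strand) and shares 1.93% of its exon bases with DHX8 on the opposite strand. ETV5 lies on chromosome 3 (185764103 to 185828107, minus strand) and shares 2.84% of its exon bases with DGKG on the same strand, where 1.66% of the 100-base windows of its longest transcript are also found. For ETV5 the counting interval ran from -0.65 to 0.45 when the median coding transcript was taken (573.5 nt) and from -0.26 to 0.03 with the longest (4082 nt), so no difference was detectable. For ETV4 it ran from -0.18 to -0.01.

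**Figure D2:**
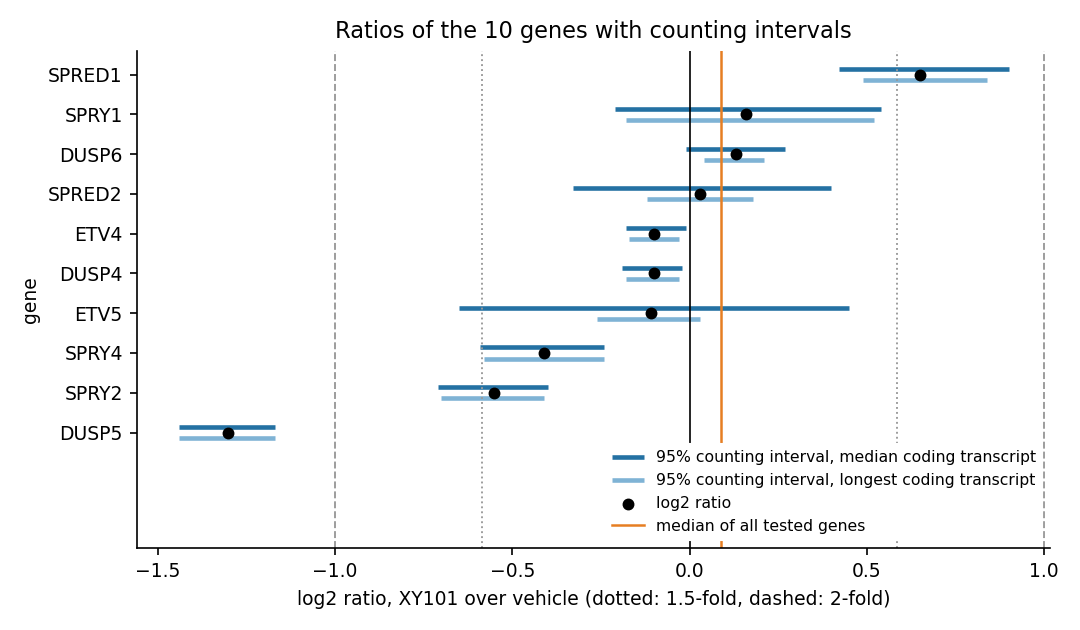
Log2 ratio of XY101 to vehicle for each gene (black points), with 95% counting intervals at the median (dark bars) and the longest (light bars) coding transcript; the orange line is the median of all tested genes, and dotted and dashed lines mark 1.5-fold and 2-fold. DUSP5 at -1.30 and its interval lie beyond the 2-fold line, and SPRY2 and SPRY4 lie to the left of 0 and SPRED1 to the right.

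Across the 10 genes, 6 had a counting interval that lay off 0 at the median coding transcript, 7 at the longest and 2 at the shortest. The same count over all genes was not made, so these numbers do not set the 10 genes apart from others. At the median transcript the 6 include DUSP4 and ETV4, each only 1.07-fold lower. These intervals hold counting error alone and leave out the differences between cultures that replicates would show. The 2 at the shortest transcript were DUSP5 and SPRY2.

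**Figure D3:**
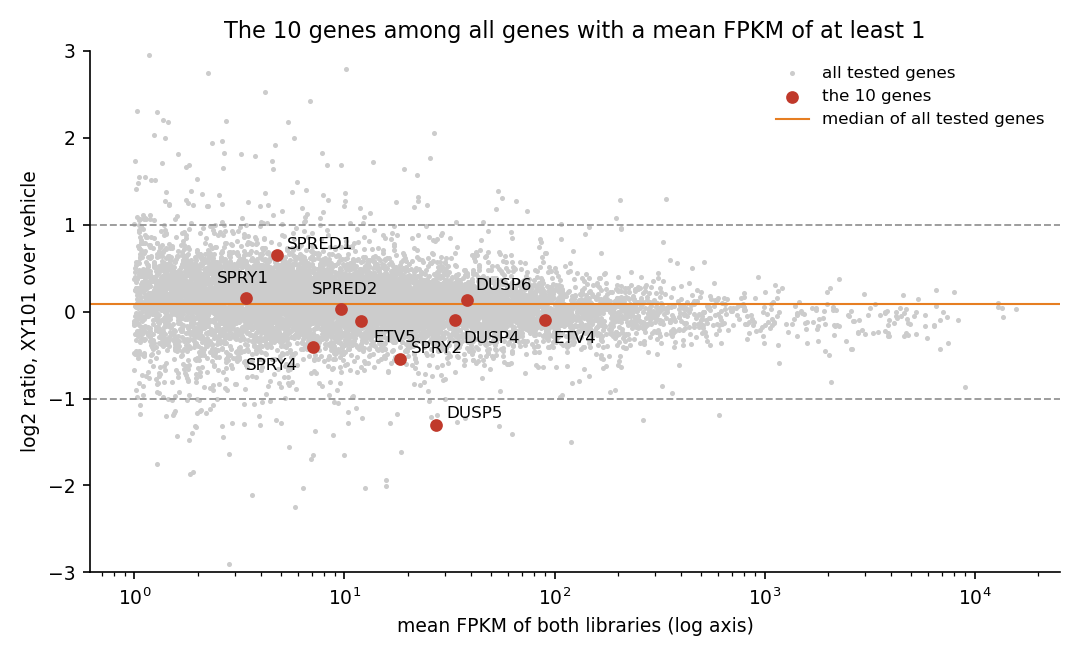
Log2 ratio of XY101 to vehicle against mean FPKM (log axis) for all genes with a mean of at least 1 FPKM (grey) and the 10 genes (red, named); dashed lines mark 2-fold, the orange line the median gene, and 9 genes lie beyond a log2 ratio of 3 in either direction and are not drawn. DUSP5 lies below the lower dashed line at a mean of 27.22 FPKM, and the other 9 genes lie between the dashed lines.

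The share of each gene in the summed RNA of the group gives the pattern by level. The 10 genes summed to 226.37 FPKM with XY101 and 261.82 FPKM with vehicle, 1.16-fold lower. The difference, XY101 minus vehicle, was -23.08 FPKM for DUSP5, -6.99 FPKM for SPRY2 and -6.13 FPKM for ETV4. DUSP5 was 6.93% of the sum with XY101 and 14.8% with vehicle, DUSP6 was 17.6% and 13.9%, and SPRED1 was 2.58% and 1.41%. A share also depends on the other genes in the sum. The share of ETV4 was 38.3% with XY101 and 35.4% with vehicle although its FPKM was lower with XY101.

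Promoter sequence is shown for members in the RefSeq promoter table (GRCh38.p14, 250 bases before to 50 after each annotated start), to set beside the receptor that XY101 targets and the factors that ERK acts through. DUSP6, SPRY1, SPRY2, SPRY4, SPRED1 and SPRED2 matched, with 10 windows in all. No sequence is printed for DUSP4, DUSP5, ETV4 or ETV5. Both strands were searched for the CIC octamers TGAATGAA and TGAATGGA, the ETS site CCGGAAGT, the AP-1 site TGACTCA, the ROR half-site AGGTCA and GCGTG, the core of the site of the aryl hydrocarbon receptor. No matches in these windows overlapped each other. A ROR half-site was found in 1 of the 10 windows, that of SPRY4, beside 13.8% of all 35116 windows, an AP-1 site in 1, that of a SPRED2 start, beside 4.95%, and GCGTG in 3 beside 36.5%. The CIC octamers and the ETS site had no match in these 10 windows, beside 1.65%, 1.03% and 4.14% of all windows. The 3 windows of SPRY2 and the window of SPRED1 held no match to any of these motifs. The matches are descriptions of letters, not binding sites. The stretches below run 5′ to 3′ on the strand of the gene, with the match in capitals, and the reverse complement of the motif is what appears for a match on the other strand.
SPRY4, chr5:142324198-142324216, minus strand, ROR half-site on the other strand, 44 bases after the start: ttcctcgccgtcTGACCTt
SPRED2, chr2:65366767-65366796, minus strand, AP-1 site at -6 of the downstream start: ctaaccctcggaTGACTCAtccggtacaat
DUSP6, chr12:89352538-89352567, minus strand, GCGTG on the other strand at -53: gccccttccgcagCACGCtcattggctggc
SPRY1, chr4:123396732-123396761, plus strand, GCGTG at -50: gatatcaccggagGCGTGtcctggagtgga

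The genes that carry the signal to ERK were compared next. Of 17 genes from RAS to ERK, none reached 1.5-fold in either direction, and the median log2 ratio was 0.12. Over all genes, 2.32% were at least 1.5-fold lower and 4.90% higher. A lack of such genes in lists of this size, here and below, therefore does not set those lists apart. The highest were SHOC2, a scaffold that helps activate RAF (3.56 FPKM with XY101 and 2.43 with vehicle), and SOS1, an exchange factor for RAS (1.97 and 1.35 FPKM). The lowest were MAPK3, which encodes ERK1 (30.95 and 36.13 FPKM), and HRAS (28.03 and 31.06 FPKM). Of 7 expressed genes for RAS GTPase-activating proteins and RAS turnover, none reached 1.5-fold, with a median of 0.04 and values from -0.13 for RASAL2 and -0.04 for RASA1 to 0.51 for DAB2IP.

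Relatives of the feedback genes were compared as well. Of 6 other MAP kinase phosphatases expressed at a mean of at least 1 FPKM, none reached 1.5-fold, with a median of -0.14. Over all genes the shares at 1.5-fold were 2.32% lower and 4.90% higher. DUSP8 was lowest (1.70 FPKM with XY101 and 2.45 with vehicle, log2 ratio -0.50) and DUSP1, an immediate early phosphatase, next (5.40 and 6.65 FPKM). DUSP16 was highest (11.24 and 9.25 FPKM) and DUSP10 next (21.24 and 21.31 FPKM). Of 4 other expressed feedback inhibitors none reached 1.5-fold, and their log2 ratios were -0.40 for CBLB, -0.23 for LRIG1, 0.05 for ERRFI1, the feedback inhibitor of EGFR, and 0.10 for CBL.

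Of 16 other expressed ETS factor genes, 1 was at least 1.5-fold higher, beside 4.90% of all genes, and none lower, beside 2.32%. The median log2 ratio was 0.37. That median was 0.01 among those with a mean of at least 5 FPKM. After centring on the median gene it was 0.28, with 1 gene at least 1.5-fold lower, beside 366 of all 10894 genes. With both libraries scaled to the same FPKM sum 2 of the 16 were at least 1.5-fold higher, and no count over all genes was made. The highest were ELF3, an epithelial ETS factor, with 108.86 FPKM with XY101 and 61.21 FPKM with vehicle (1.78-fold higher), and ETV1. The lowest were ETS1 (36.95 and 54.29 FPKM, log2 ratio -0.55) and ETS2 (20.33 and 28.43 FPKM, -0.48), which ERK is known to phosphorylate. The 3 CIC repressor genes lay above 0, where 35.3% of all genes lay below 0, with CIC at 12.23 FPKM with XY101 and 10.15 with vehicle, its partner ATXN1 at 1.46 and 0.91 FPKM and ATXN1L at 4.18 and 3.26 FPKM. ATXN1 was 1.54-fold higher, where 4.90% of all genes were at least 1.5-fold higher. No gene of the 3 reached 1.5-fold with a pseudocount of 1 FPKM or after centring on the median gene. A mean of at least 5 FPKM left out ATXN1 and ATXN1L, so that filter says nothing about them.

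The 17 expressed early and delayed ERK target genes outside the 10 had a median log2 ratio of -0.10, as did the 10 genes. With a mean of at least 5 FPKM the medians were -0.23 for the ERK targets and -0.11 for the 10 genes. None of the 17 was 2-fold higher, beside 1.17% of all genes, and 1 was at least 1.5-fold higher, beside 4.90%. At least 2-fold lower were 2, beside 0.698% of all genes, in a list chosen with earlier results of these data known. The 2 were HBEGF, a ligand of EGFR, with 31.15 FPKM with XY101 and 77.75 FPKM with vehicle (2.49-fold lower), and the AP-1 subunit gene FOSL1, with 155.94 and 369.29 FPKM (2.37-fold lower). The highest were FOS (3.26 and 1.72 FPKM, 1.85-fold higher) and EREG (20.04 and 16.33 FPKM). At the receptors, none of 6 expressed genes reached 1.5-fold, beside 2.32% of all genes lower and 4.90% higher. The lowest were FGFR1 (9.08 FPKM with XY101 and 11.45 with vehicle, log2 ratio -0.33) and FGFR2 (1.38 and 1.74 FPKM, -0.31), and the highest ERBB3 (13.82 and 10.20 FPKM, 0.43) and ERBB2 (34.98 and 28.98 FPKM, 0.27).

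**Figure D4:**
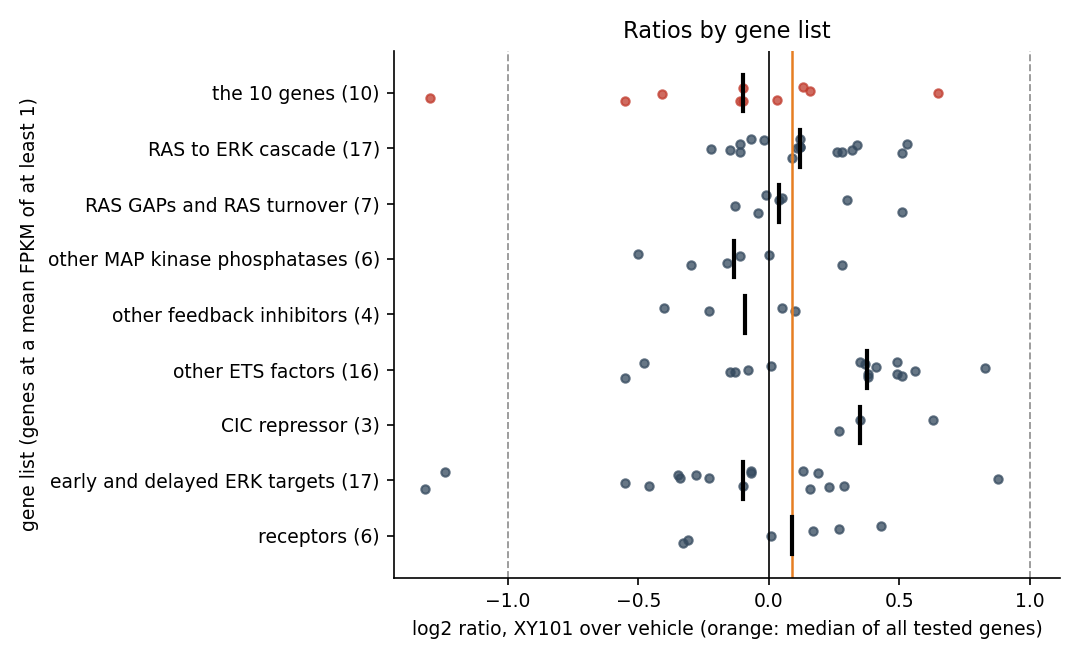
Log2 ratio of XY101 to vehicle for the 10 genes (red) and the genes of each related list (dark) at a mean of at least 1 FPKM, with the number of genes in brackets; black bars are medians, the orange line the median of all tested genes and dashed lines 2-fold. DUSP5 among the 10 genes and HBEGF and FOSL1 among the ERK targets are the points beyond 2-fold.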

How the data were processed

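Poly(A) RNA of HUCCT-1 cells was sequenced in 1 XY101 and 1 vehicle library. The values deposited by the authors are FPKM rounded to 2 decimals, with 770 of 17424 rows holding annotation text, which were left out. Accounts of their making differ: a TruSeq library mapped to GRCh37 by BWA and Bowtie 2 and quantified by RSEM in the paper's methods, and in the submitters' labels and processing notes a KAPA library with, in no stated role, HISAT2, HTSeq 0.11.2 and build GRCh38. The build, aligner and counter behind the FPKM values are therefore uncertain. The ratio log2((XY101 + 0.1)/(vehicle + 0.1)) was taken for each gene, which understates differences of genes with low FPKM. Genes with a mean of at least 1 FPKM were counted at 2-fold and 1.5-fold, with no test, since each condition had 1 library. Fragments were approximated from the estimated depth and GENCODE release 44 transcript lengths less an offset of 300 nt, and 95% Clopper-Pearson intervals cover counting error only. The members and lists were chosen with earlier results of these data known. Named genes were all 10 members, the 2 highest and 2 lowest log2 ratios of each list among genes with a mean of at least 1 FPKM (all in lists of up to 4), the relatives SPRY3, SPRED3, ETV1 and DUSP1, and FGFR1 and FGFR2; the markers, NF1, CCND1, PHLDA1 and EPHA2 were added after their values were seen. One gene that the rule names is not reported here. Alternatives covered pseudocount, filter, centring, scaling, GC and length. A planned protein comparison was not run. The ratio and the depth estimate were run on simulated data and the motif search on a made-up sequence. The other steps were not tested in this way. Software was scipy 1.17.1, numpy 2.4.6, pandas 2.3.3 and matplotlib 3.10.9 under Python 3.11.15.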

Additional observations from a re-analysis of the deposited data

How the results depend on the processing

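The median log2 ratio of the 10 genes stayed between -0.19 and -0.06 over 8 alternatives, and DUSP5 stayed between -1.39 and -1.25, past 2-fold under each. The count of genes at least 1.5-fold higher was 0 with a pseudocount of 1 FPKM, with a mean FPKM of at least 5, when centred on the median gene, and when centred on the 500 genes nearest in GC content or in transcript length, because SPRED1 lay at 1.57-fold and, at a mean of 4.75 FPKM, under the filter of 5. The count at least 1.5-fold lower was 2 when centred on the median gene, on GC content or on transcript length, SPRY2 joining DUSP5. Over all 10894 genes, centring on the median gene moved the lower count from 253 to 366 and the higher count from 534 to 336. No count over all genes was made for GC or length centring. The GC and length alternatives were chosen after seeing the data. Of the 10 genes, 8 kept the sign of their ratio, while SPRED2 lay below 0 under 3 of 6 alternatives and DUSP6 came to 0.00 when centred on transcript length. Of 60 member ratios under alternatives, 3 moved outside their counting interval. Among the related lists, the median of the other ETS factors was 0.01 with a mean of at least 5 FPKM, against 0.37. After centring on the median gene, 3 ERK targets were at least 1.5-fold lower in place of 2, and 1 other MAP kinase phosphatase in place of 0. The lower count over all genes rose as well, as given above. ERK targets at least 1.5-fold higher numbered 0 with a mean of at least 5 FPKM and 2 without a filter, against 1. Counts over all genes were not made under those filters. The intervals of DUSP6, SPRY1, SPRED2 and ETV5 spanned 0 at the median coding transcript, and at the longest transcript that of DUSP6 did not. Fragment numbers depend on the transcript length taken as well as on depth. ETV5 had about 56 with XY101 and 60 with vehicle at the median length, and 770 and 833 at the longest.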

Other observations

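A published MAPK pathway activity score uses 10 transcripts, 6 of them among the genes above. Its other genes were CCND1, the cyclin D1 gene, at 106.12 FPKM with XY101 and 111.32 with vehicle, PHLDA1 at 30.77 and 37.48 FPKM, and the ephrin receptor genes EPHA2 at 86.30 and 109.97 FPKM and EPHA4 at 2.10 and 1.87 FPKM. Of the 10, 8 lay below 0, where 35.3% of all genes did. Among the 8, CCND1, ETV4, DUSP4 and ETV5 were at most 1.08-fold lower. SPRY2, SPRY4, ETV4, ETV5 and DUSP4 were already counted among the ERK feedback and ETS output genes. None of the 10 in the score reached 1.5-fold, beside 2.32% of all genes lower and 4.90% higher. The median log2 ratio was -0.11, with a range from -0.55 for SPRY2 to 0.16 for EPHA4. After centring on the median gene 1 was at least 1.5-fold lower, SPRY2, beside 366 of all 10894 genes. DUSP5 and SPRED1, which lay furthest from 0 among the ERK feedback genes, are not in that score.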
